A study of Mus musculus with 14 samples.

Results

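Glutamate receptors and glutamate transporters are described here in whole mouse ear skin, as messenger RNA. The set was defined by gene name, with no cut on measured values. It was chosen with earlier results of these data known. It held the AMPA (Gria), kainate (Grik), NMDA (Grin), delta (Grid) and metabotropic (Grm) receptor genes, the Slc1 family of plasma membrane transporters and the vesicular transporters Slc17a6, Slc17a7 and Slc17a8. All 36 genes had a row among the 24035 gene rows of the expression table. The study compared ears that lacked Langerhans cells, a dendritic cell of the epidermis, for a long or a short time. LC-DTA is the long-term ablation model, and LC-DTR is the short-term model, in which ears were collected 3 days after diphtheria toxin. The 2 surfaces of the ear received 20 µl of a 4:1 blend of acetone and olive oil (vehicle) or the same with 1% croton oil, a skin irritant, 6 h before collection. The 4 groups were LC-DTR with vehicle (n = 3), LC-DTR with croton oil (n = 4), LC-DTA with vehicle (n = 3) and LC-DTA with croton oil (n = 4). Langerhans cells were depleted in all of them, so no group was a normal ear. A time after diphtheria toxin is given for LC-DTR samples only. Genotype, length of ablation and recent toxin therefore coincide, and no comparison of LC-DTA with LC-DTR can tell them apart. The labels give no promoter for either transgene and no age, strain or sex. They do not say whether samples came from separate animals, and p-values therefore measure only the spread between these samples.

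Glutamate is the main excitatory transmitter of the central nervous system. AMPA, kainate and NMDA receptors are ion channels built from several subunits, and metabotropic receptors signal through G proteins. Excitatory amino acid transporters carry glutamate into cells together with sodium, the neutral amino acid transporters of the same family exchange amino acids such as alanine, serine, cysteine and glutamine, and vesicular transporters load glutamate into synaptic vesicles. In skin, glutamate receptors are known on sensory nerve endings, and keratinocytes use the amino acid transporters.

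Levels are given in TPM, a transcript share corrected for gene length, so that levels can be compared between genes. Each sample summed to 1000000 TPM, and 13733 to 14332 genes reached 1 TPM in a sample. Within groups, samples correlated at r = 0.986 to 0.996 across genes on the log2 scale, where genes are not independent replicates. LC-DTR croton oil samples 2 and 3 lay nearer to the vehicle samples than samples 1 and 4 on the first principal component of all genes tested. Their scores were 5.26 and 8.06 against 28.5 and 28.6. Cd207, the Langerhans cell marker, was between 0.0567 and 1.88 TPM in every sample.

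Of the 36 genes, 11 reached 1 TPM in at least 1 sample, and the same number did so in at least 3 samples and were tested. This is 30.6% of the set, beside 61.1% of all gene rows. The detected genes were Gria1, Gria3, Grik4, Grik5, Grin2d, Grin3b, Grm4, Slc1a1, Slc1a3, Slc1a4 and Slc1a5. Only 9 of them were at 1 TPM or more in all 14 samples, since Grik4 and Grm4 fell below it in some. In LC-DTR, Grik4 reached 1 TPM in 3 of 3 vehicle and 3 of 4 croton oil samples. In LC-DTA it did so in 1 of 3 vehicle and 0 of 4 croton oil samples, so it passed the filter mostly through LC-DTR. By role, 2 of 4 AMPA subunits, 2 of 5 kainate subunits, 2 of 7 NMDA subunits, 1 metabotropic receptor, 2 of 5 excitatory amino acid transporters and both neutral amino acid transporters were detected. None of the 3 vesicular transporters was.

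The sum over the set was 103 to 166 TPM in a sample. The 2 neutral amino acid transporters made up 66.3 to 77.4% of it. The 26 receptor genes together made up 10.95 to 19.6%, or 15.2 to 28.7 TPM. Excitatory amino acid transporters gave 5.90 to 17.5%, and vesicular transporters 0.109 to 0.483%. Ordered by median TPM over the samples, Slc1a5 (69.9) led, followed by Slc1a4 (19.5), Slc1a1 (8.67), Grik5 (7.68), Slc1a3 (3.77), Grin2d (2.32), Gria1 (2.07), Grin3b (1.76), Grm4 (1.41), Gria3 (1.38) and Grik4 (0.983). Slc1a5 exceeded Slc1a4 in all 14 samples with no overlap of their ranges. All other neighbours in this order overlapped in range, although Slc1a4 exceeded Slc1a1 in 13 samples and Grik5 exceeded Slc1a3 in 13.

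**Figure D1:**
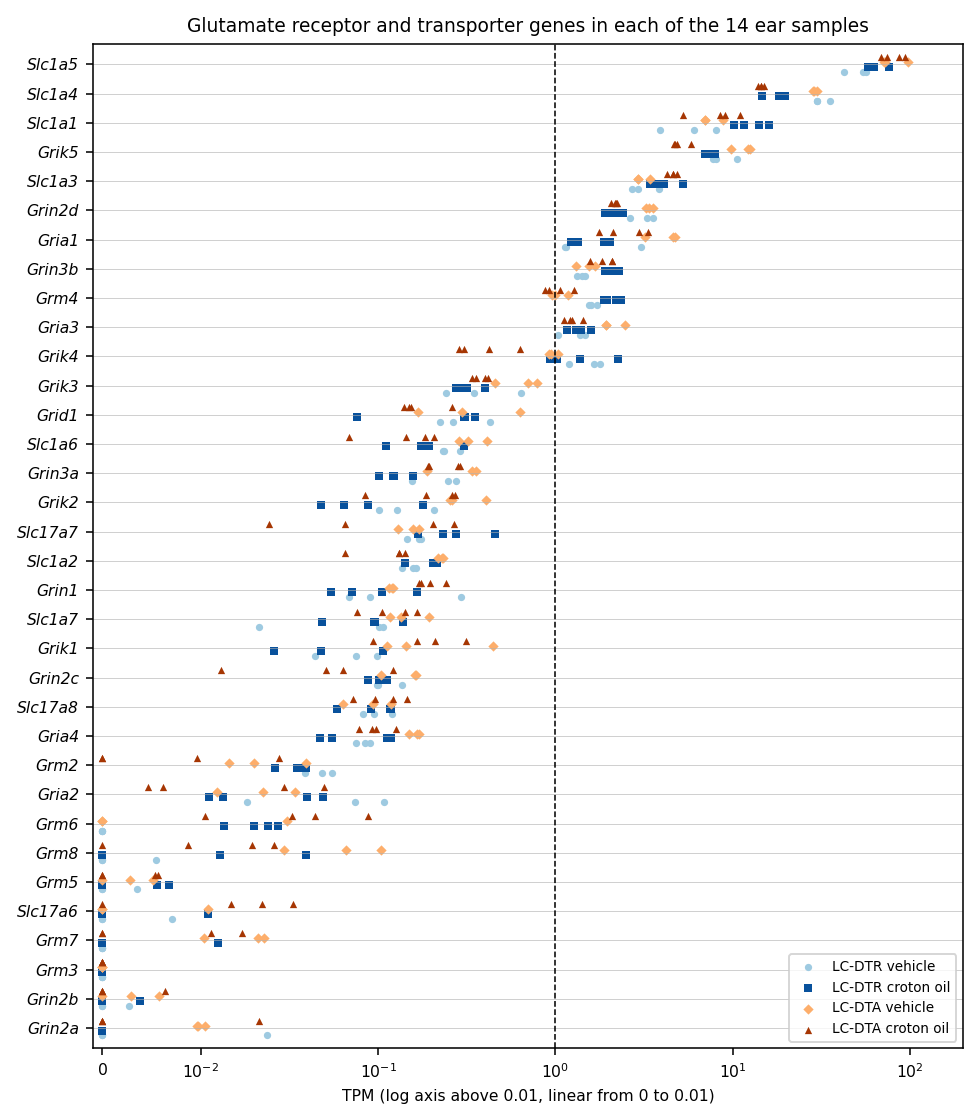
TPM of the genes reported in each of the 14 samples, ordered by median, on an axis that is logarithmic above 0.01 TPM and linear below it. The 11 detected genes lie at or above 1 TPM in at least 3 samples, and the others shown stay below it throughout.

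The following genes stayed under 1 TPM in every sample, and each is given by its highest value. Among AMPA subunits, Gria2, the subunit that makes these channels impermeable to calcium, peaked at 0.107 TPM and Gria4 at 0.1704. The kainate subunits Grik1, Grik2 and Grik3, which can form channels by themselves, peaked at 0.443, 0.406 and 0.787. Grin1, the subunit that NMDA receptors require, peaked at 0.293 TPM. The other NMDA subunits below 1 TPM were Grin2a (0.0236), Grin2b (0.00636), Grin2c (0.164) and Grin3a (0.357). The delta subunit Grid1 peaked at 0.629. The metabotropic receptors peaked as follows, for Grm2 of 0.0548, Grm5 of 0.00678, Grm6 of 0.0881, Grm7 of 0.0228 and Grm8 of 0.104, and Grm3 was listed at 0 in every sample. Slc1a2, the main glutamate transporter of astrocytes, peaked at 0.233 TPM, Slc1a6 at 0.411 and Slc1a7 at 0.195. The vesicular transporters Slc17a6, Slc17a7 and Slc17a8 peaked at 0.0330, 0.456 and 0.145. Most neuronal marker RNA was low in the same samples: 9 of 11 markers were under 1 TPM in all, with peaks for Snap25 of 0.288, Rbfox3 of 0.0646 and Mrgprd of 0.0706. The other 2, Tubb3 and Calca, peaked at 6.77 and 13.1 TPM.

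Promoter sequences are shown for 3 genes, picked for their responses to croton oil: Slc1a4, which was lower in both genotypes, Slc1a1, which was higher in LC-DTR, and Grik5, which was lower in LC-DTA. A link between sequence and response was not tested. Each stretch holds the 250 bases before the RefSeq transcription start and the first 30 after it, on build GRCm38.p6, on the strand of the gene, written 5′ to 3′. RefSeq promoters were at hand for 7 of the 11 detected genes. That of Grin2d was not used because its window, chr7:45866652-45866931, does not reach the gene start given here (45878378). The windows shown do hold the gene start given here, although for Slc1a1 and Grik5 the RefSeq start lies at another base. In all, 3 motifs were searched on both strands in such windows of 32851 promoters: the core of the amino acid response element, TGATGNAA, which 3.81% of promoters held, TGANTCA (7.46%) and the E-box CACGTG (6.79%). TGANTCA is a loose form of the AP-1 site that takes any base in the middle. Capitals mark the only match among these promoters, the reverse complement of TGATGNAA in Slc1a4, which begins at position -4 from the start. The windows are chr11:20332684-20332963 on the minus strand for Slc1a4, chr19:28834885-28835164 on the plus strand for Slc1a1 and chr7:25072340-25072619 on the minus strand for Grik5.
Slc1a4: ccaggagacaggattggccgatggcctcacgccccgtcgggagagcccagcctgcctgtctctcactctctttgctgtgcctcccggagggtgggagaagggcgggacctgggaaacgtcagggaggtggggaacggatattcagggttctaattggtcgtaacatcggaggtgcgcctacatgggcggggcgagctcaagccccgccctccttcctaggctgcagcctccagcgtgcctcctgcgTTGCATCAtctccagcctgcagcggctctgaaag
Slc1a1: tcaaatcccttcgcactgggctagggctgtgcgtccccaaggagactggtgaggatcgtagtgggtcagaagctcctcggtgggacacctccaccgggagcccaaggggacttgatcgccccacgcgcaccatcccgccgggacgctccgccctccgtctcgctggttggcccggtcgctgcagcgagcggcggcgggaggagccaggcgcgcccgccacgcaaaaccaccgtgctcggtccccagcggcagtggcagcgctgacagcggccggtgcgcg
Grik5: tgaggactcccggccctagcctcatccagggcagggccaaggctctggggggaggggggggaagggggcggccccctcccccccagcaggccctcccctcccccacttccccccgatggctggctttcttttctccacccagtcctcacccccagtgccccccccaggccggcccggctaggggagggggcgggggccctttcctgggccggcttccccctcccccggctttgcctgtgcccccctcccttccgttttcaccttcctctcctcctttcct
A match is a description of these letters and no evidence of binding. Of the other detected genes in the table, Grin3b held an AP-1 match (TGATTCA, beginning at position -124) and Grik4 and Slc1a3 held none of these motifs.

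The AMPA subunits detected were Gria1 and Gria3, which encode GluA1 and GluA3. Gria1 (chromosome 11, 57011387 to 57330244, GRCm38) was at 1.14, 1.14 and 3.04 TPM in LC-DTR vehicle samples and at 1.22, 2.04, 1.89 and 1.34 after croton oil. In LC-DTA it was at 4.74, 3.19 and 4.604 with vehicle and at 3.32, 2.97, 2.10 and 1.76 after croton oil. All LC-DTA vehicle samples lay above all LC-DTR vehicle samples, while LC-DTR vehicle sample 3 stood well above the other two of its group. Gria3 (chromosome X, 41400854 to 41678601) was at 1.37, 1.03 and 1.46 TPM in LC-DTR vehicle samples, against 1.59, 1.40, 1.31 and 1.17 with croton oil. Its LC-DTA values were 1.93, 2.48 and 1.93 with vehicle and 1.22, 1.24, 1.43 and 1.12 after croton oil. The LC-DTA vehicle samples were above all other samples for Gria3, and the other groups overlapped.

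The kainate subunits detected, Grik4 and Grik5, encode the GluK4 and GluK5 subunits, which need another kainate subunit to make a channel. Grik5 (chromosome 7, 25009849 to 25072346) was the most abundant receptor gene. It stood at 10.6, 8.03 and 7.79 TPM in LC-DTR vehicle samples and at 7.57, 7.49, 7.91 and 6.98 with croton oil. In LC-DTA it went from 9.86, 12.2 and 12.6 with vehicle to 5.81, 4.75, 4.68 and 4.87 with croton oil. The LC-DTA croton oil samples were below every other sample. Grik4 (chromosome 9, 42518135 to 42944493) was at 1.78, 1.20 and 1.66 TPM in LC-DTR vehicle samples and at 0.938, 2.26, 1.03 and 1.38 with croton oil. Values in LC-DTA were 0.939, 0.916 and 1.04 with vehicle and 0.421, 0.287, 0.306 and 0.629 with croton oil. Here too the LC-DTA croton oil samples were the lowest, below all other samples.

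Of the NMDA subunits, Grin2d encodes GluN2D, which binds glutamate, and Grin3b encodes GluN3B, which binds glycine. Grin2d (chromosome 7, 45831883 to 45878378) was at 3.30, 3.57 and 2.64 TPM with vehicle and 2.19, 1.91, 2.41 and 1.98 with croton oil in LC-DTR. The LC-DTA values were 3.39, 3.56 and 3.24 with vehicle and 2.17, 2.05, 2.23 and 2.20 with croton oil. Every croton oil sample was below every vehicle sample, in either genotype. Grin3b (chromosome 10, 79970715 to 79977190) was at 1.42, 1.48 and 1.32 TPM with vehicle and 1.90, 2.09, 2.28 and 1.95 with croton oil in LC-DTR. In LC-DTA it was at 1.68, 1.30 and 1.54, and at 2.08, 2.10, 1.57 and 1.84 with croton oil. The groups were apart in LC-DTR and overlapped in LC-DTA. Grin3b exons overlap those of Tmem259 on the other strand, a gene at 144 to 216 TPM, and whether reads were counted by strand is not given in the sources used here, so the Grin3b values are uncertain.

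The 1 metabotropic receptor detected was Grm4, which couples to inhibitory G proteins. Grm4 (chromosome 17, 27422387 to 27521403) was at 1.58, 1.54 and 1.72 TPM with vehicle and 2.21, 1.88, 1.96 and 2.36 with croton oil in LC-DTR. In LC-DTA the values were 0.961, 0.990 and 1.18, and 0.917, 0.877, 1.28 and 1.07 with croton oil. All 7 LC-DTA samples were below all 7 LC-DTR samples.

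Among the excitatory amino acid transporters, Slc1a1 encodes EAAC1, which also carries cysteine, and Slc1a3 encodes GLAST. Slc1a1 (chromosome 19, 28835049 to 28913960) was at 6.05, 8.08 and 3.90 TPM in LC-DTR with vehicle and at 14.004, 11.5, 10.1 and 16.0 with croton oil. In LC-DTA it was at 7.003, 8.81 and 6.995 with vehicle and at 5.25, 9.10, 11.04 and 8.52 with croton oil. The LC-DTR groups did not overlap and the LC-DTA groups did. Its exons overlap those of 4430402I18Rik on the other strand, a gene at 0.487 to 1.48 TPM. Slc1a3 (chromosome 15, 8634124 to 8710764) was at 3.86, 2.93 and 2.70 TPM with vehicle and 4.09, 3.68, 5.24 and 3.40 with croton oil in LC-DTR. The LC-DTA samples gave 2.92, 2.91 and 3.41 with vehicle, and 4.58, 4.62, 4.87 and 4.27 with croton oil. For Slc1a3 the treatment groups were apart in LC-DTA and overlapped in LC-DTR.

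The neutral amino acid transporters were the most abundant genes of the set. Slc1a4 (ASCT1; chromosome 11, 20302180 to 20332713) was at 29.8, 29.8 and 35.5 TPM in LC-DTR with vehicle and at 18.4, 19.7, 19.3 and 14.6 with croton oil. In LC-DTA it was at 29.9, 28.9 and 28.3, and at 13.95, 14.97, 14.5 and 14.4 with croton oil. All 8 croton oil samples lay below all 6 vehicle samples. Slc1a5 (ASCT2, a glutamine transporter; chromosome 7, 16781340 to 16798274) was at 56.6, 42.5 and 54.5 TPM in LC-DTR with vehicle and at 76.1, 57.8, 62.6 and 60.5 with croton oil. Its LC-DTA values were 72.7, 71.1 and 97.5 with vehicle and 68.8, 86.7, 94.4 and 74.1 with croton oil. The LC-DTR vehicle samples were below all other samples, and the LC-DTA groups overlapped.

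**Figure D2:**
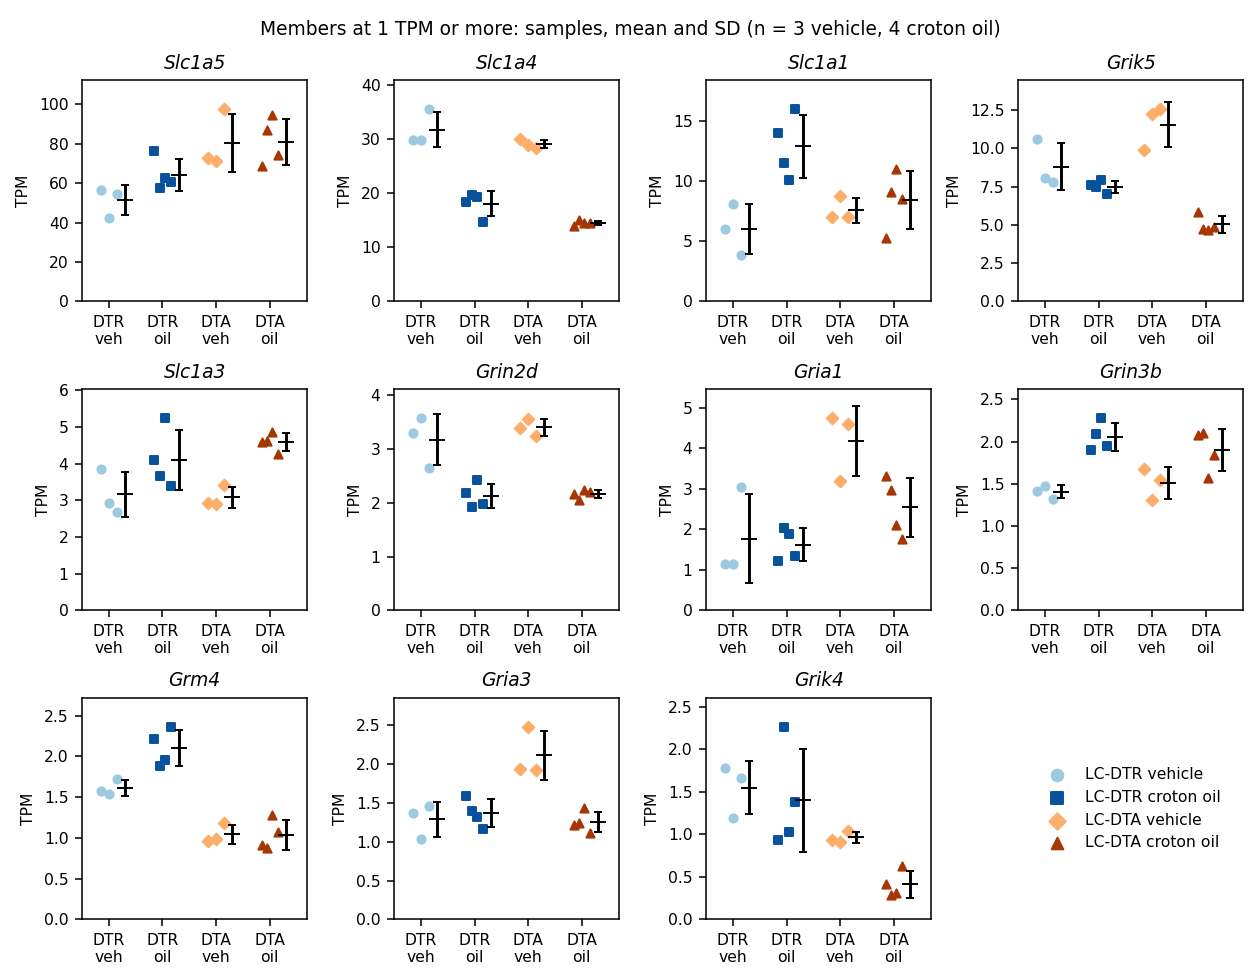
TPM of the 11 detected genes by group, with each sample as a point and the group mean with its SD (n = 3 with vehicle, n = 4 with croton oil). Slc1a4 and Grin2d are lower after croton oil in both genotypes, and Grik5 is lowest in LC-DTA after croton oil.

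In LC-DTR ears, 3 of the genes were higher and 2 lower after the irritant. Slc1a1, the glutamate and cysteine transporter, rose from 6.01 ± 2.09 to 12.9 ± 2.61 TPM (mean ± SD, n = 3 and 4), and Slc1a4 fell from 31.7 ± 3.27 to 18.004 ± 2.31 TPM. Grin2d was also lower, and Grin3b and Grm4 were higher. The difference on the log2(TPM + 1) scale, which understates the change of low genes, was 1.02 ± 0.23 for Slc1a1 (± SE, limma adjusted p = 0.00231) and -0.79 ± 0.093 for Slc1a4 (limma adjusted p = 2.36e-05). For Grin2d it was -0.41 ± 0.093 (limma adjusted p = 0.00231). Grin3b differed by 0.34 ± 0.094 (limma adjusted p = 0.00770), and Grm4 by 0.24 ± 0.095 (limma adjusted p = 0.0446). The threshold for a call was an adjusted p of 0.05. The 5 called genes of 11 compare with 51.6% of all 14693 genes tested, the 3 higher with 22.1% and the 2 lower with 29.5%, and a share near that of all genes is no result about the set. By samples, 4 genes had every croton oil sample above every vehicle sample (20.6% of all genes) and 2 had every one below (27.1%). The fourth gene above was Slc1a5, with a difference of 0.32 ± 0.14 that was not called (limma adjusted p = 0.0702). Slc1a3 (0.29 ± 0.12, limma adjusted p = 0.0635), Grik5 (-0.20), Grik4 (-0.11), Gria3 (0.05) and Gria1 (-0.02) were not called either. The median over the 11 was 0.05, and -0.06 over all genes tested. The Grm4 call was lost without any 1 of 9 libraries (any of the LC-DTR or LC-DTA vehicle libraries, croton oil libraries 1 and 4 of LC-DTR, and library 4 of LC-DTA), with differences of 0.20 to 0.27 and limma adjusted p of 0.0526 to 0.119. Without LC-DTR croton oil samples 2 and 3, Grin3b was at 0.28 (limma adjusted p = 0.0554), and with each library scaled by the median ratio, Slc1a3 (0.34, limma adjusted p = 0.0245) and Slc1a5 (0.38, limma adjusted p = 0.0333) were called.

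In LC-DTA ears, 6 of the genes were lower after croton oil and 1 was higher. Grik5 fell from 11.5 ± 1.47 to 5.03 ± 0.528 TPM, and Slc1a4 fell from 29.05 ± 0.814 to 14.5 ± 0.416 TPM. Both AMPA subunits, both kainate subunits and Grin2d were among the lower genes, and Slc1a3 was the higher one, from 3.08 ± 0.286 to 4.58 ± 0.247 TPM. The log2 difference was -1.05 ± 0.11 for Grik5 (limma adjusted p = 6.80e-06) and -0.96 ± 0.093 for Slc1a4 (limma adjusted p = 3.70e-06). Grik4 differed by -0.48 ± 0.16 (limma adjusted p = 0.0188), Grin2d by -0.47 ± 0.093 (limma adjusted p = 6.75e-04) and Gria3 by -0.46 ± 0.10 (limma adjusted p = 0.00170). Gria1 passed narrowly at -0.56 ± 0.23 (limma adjusted p = 0.0473), with overlapping groups. Slc1a3 was higher by 0.45 ± 0.12 (limma adjusted p = 0.00650). These 7 calls of 11 compare with 58.7% of all genes tested, the 1 higher with 24.2% and the 6 lower with 34.5%. Non-overlapping samples gave 1 gene above (26.1% of all genes) and 5 below (36.9%). The median over the 11 was -0.46, beside -0.09 over all genes. Grin3b (0.21 ± 0.094, limma adjusted p = 0.0719), Slc1a1 (0.11), Slc1a5 (0.01) and Grm4 (-0.01) were not called. The Gria1 call was lost without any 1 of 7 libraries (LC-DTR croton oil 2, 3 or 4, LC-DTA vehicle 1 or 3, LC-DTA croton oil 3 or 4; -0.56 to -0.45, limma adjusted p 0.0507 to 0.145) under both scalings (-0.50 and -0.41) and without LC-DTA croton oil samples 3 and 4 together (-0.31), and that of Grik4 without LC-DTA vehicle 3 (-0.46, limma adjusted p = 0.0584) or with a pseudocount of 5 (-0.14). Grin3b was called without LC-DTA croton oil 3 (0.26, limma adjusted p = 0.0320) and under both scalings (0.25 and 0.32).

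Markers of other cells moved with these responses. Schwann cell markers summed to 401 to 509 TPM in LC-DTA with vehicle and 247 to 320 with croton oil, and 5 of 7 were called lower, beside 34.5% of all genes. The 6 fibroblast markers went from 5920–7127 to 3852–5181 TPM with 3 called lower, and the 6 endothelial markers from 145–157 to 98.9–118 with 4 called lower. In LC-DTR none of the Schwann cell markers was called (206 to 317 TPM with vehicle, 187 to 253 with croton oil). Hair follicle marker sums were lower with croton oil in both genotypes, from 61.5–77.6 to 25.7–33.9 TPM in LC-DTR with 5 of 8 called lower (29.5% of all genes), and from 55.6–75.4 to 25.4–36.6 in LC-DTA with 4 of 8 called lower. Basal keratinocyte markers summed to 14591–16416 TPM with vehicle and 8019–10308 with croton oil in LC-DTR, with 4 of 6 called lower and 2 higher. In LC-DTA they summed to 13783–13940 and 11118–13102 TPM, with 3 called lower and 3 higher. Mast cell (5 of 12) and skeletal muscle (3 of 6) markers were also called lower in LC-DTA, while 2 of the mast cell markers were higher. Chondrocyte markers had 3 of 6 called lower in LC-DTR (29.5% of all genes) and 1 of 6 in LC-DTA. Macrophage markers had 2 of 4 called lower (34.5% of all genes) and 1 higher in LC-DTA, and 1 higher in LC-DTR. Suprabasal keratinocyte markers had 2 of 5 called lower and 1 higher in LC-DTR. The sebaceous gland, melanocyte and adipocyte lists had at most 1 called in any 1 direction. Neutrophil marker sums, 7 genes tested, were higher in both, from 26.3–69.6 to 263–770 TPM in LC-DTR and from 34.3–68.9 to 439–671 in LC-DTA, with 6 called higher in each (22.1% and 24.2% of all genes). The 11 neuronal markers summed to 3.00 to 6.58 TPM in LC-DTR with vehicle and 6.89 to 15.2 with croton oil, and to 4.99 to 7.32 and 6.65 to 10.1 in LC-DTA. Of the 2 tested, Calca, which encodes the neuropeptide CGRP, rose in LC-DTR from 0.0547 to 7.42 TPM (2.90 ± 0.24, limma adjusted p = 1.97e-06) and by 1.63 ± 0.24 in LC-DTA (limma adjusted p = 8.56e-05), and Tubb3, a neuronal tubulin, fell in LC-DTR (-0.65, limma adjusted p = 0.0497). None of these markers was at 0 in all samples. Their part in the differences of the glutamate genes was not tested, and in whole ear RNA, fewer cells of a type and less RNA per cell cannot be told apart.

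**Figure D3:**
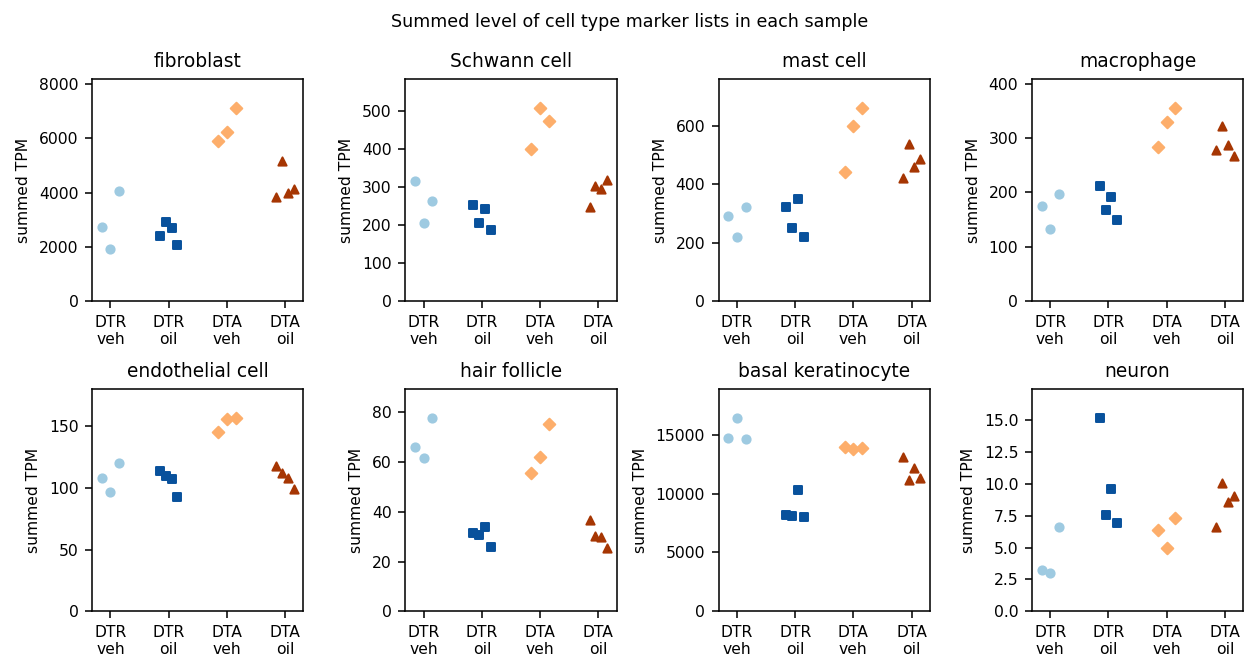
Summed TPM of 8 cell type marker lists in each sample by group, on linear axes from 0. At each treatment, fibroblast, mast cell and macrophage sums are higher in LC-DTA than in LC-DTR, and hair follicle sums are lower after croton oil in both genotypes.

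With vehicle alone, 4 of the genes were higher in LC-DTA than in LC-DTR and 1 was lower. Gria1 stood at 4.18 ± 0.860 against 1.77 ± 1.10 TPM (n = 3 each), Slc1a5 at 80.4 ± 14.8 against 51.2 ± 7.63, and Grm4 at 1.04 ± 0.117 against 1.61 ± 0.0955. The log2 difference was 0.96 ± 0.24 for Gria1 (limma adjusted p = 0.0121) and 0.64 ± 0.15 for Slc1a5 (limma adjusted p = 0.00887). It was 0.44 ± 0.11 for Gria3 (limma adjusted p = 0.0111) and 0.36 ± 0.12 for Grik5 (limma adjusted p = 0.0427). Grm4 differed by -0.36 ± 0.10 (limma adjusted p = 0.0208). The 5 calls compare with 24.5% of all genes tested, the 4 higher with 19.1% and the 1 lower with 5.34%. Samples did not overlap for 3 genes above (31.4% of all genes) and 2 below (11.1%), the second being Grik4 (-0.37 ± 0.17, limma adjusted p = 0.134). Grik4 passed the filter mostly through LC-DTR samples, where it is higher. Among all genes, 78.2% of the calls were higher in LC-DTA, but only 54.1% after median ratio scaling and 47.7% after quantile normalization, which moved the median of all genes by -0.11. The median was 0.08 over the 11 genes and 0.10 over all genes as deposited.

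Single libraries mattered most under vehicle, where each group had 3. Without LC-DTR vehicle 2, none of the 5 genes was called, although each kept its direction: Gria1 was at 0.80 (limma adjusted p = 0.0645), Slc1a5 at 0.51 (0.0517), Gria3 at 0.36 (0.0594), Grik5 at 0.31 (0.155) and Grm4 at -0.38 (0.0505). The share of all genes called also went from 24.5% to 12.1% without that library. Without LC-DTR vehicle 3 the calls of Grik5 (0.29, limma adjusted p = 0.125) and Grm4 (-0.33, 0.0522) were lost. Without LC-DTA vehicle 2 the calls of Gria3 (0.36, limma adjusted p = 0.0543), Grik5 (0.32, 0.131) and Grm4 (-0.34, 0.0667) were lost. Grm4 also lost its call without LC-DTA vehicle 1 (-0.33, limma adjusted p = 0.0717), and Grik5 without LC-DTA vehicle 3 (0.30, 0.155) and without any 1 of 5 croton oil libraries (LC-DTR 1 or 3, LC-DTA 2, 3 or 4; 0.0502 to 0.0545). Grik4 was called without LC-DTR croton oil 2 (limma adjusted p = 0.0497) and after quantile normalization (-0.54). Grik5 was not called under either scaling (0.26 and 0.19), and Gria3 not after quantile normalization (0.24). Marker sums were higher in LC-DTA under vehicle: fibroblast 5920–7127 against 1914–4071 TPM (6 of 6 called higher), mast cell 440–660 against 219–321 (10 of 12), macrophage 283–356 against 132–198 (4 of 4), Schwann cell 401–509 against 206–317 (4 of 7), beside 19.1% of all genes. Endothelial (145–157 against 96.9–120 TPM, 2 of 6 called higher) and chondrocyte sums (120–135 against 94.4–106, 2 of 6) did not overlap either. Nor did melanocyte sums (97.4–123 against 55.3–84.5 TPM, 1 of 6), and 0 markers of these 3 lists were called lower. Keratinocyte marker sums were lower: suprabasal 24331–26347 against 30623–37835 TPM (2 of 5 called lower, 0 higher) and basal 13783–13940 against 14591–16416 (1 of 6 called lower, 0 higher), beside 5.34% of all genes. The highest LC-DTR vehicle value of the fibroblast sum was in sample 3, as for Gria1. The same held for the mast cell, macrophage, endothelial, adipocyte, hair follicle, suprabasal keratinocyte, neutrophil and neuron sums. It did not hold for the Schwann cell, basal keratinocyte, sebaceous gland, melanocyte, skeletal muscle and chondrocyte sums. The part of these markers in the differences was not tested.

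After croton oil, 5 of the genes were lower in LC-DTA than in LC-DTR. None was called higher in the fit used throughout, where Slc1a5 narrowly missed the threshold. Grm4 was at 1.03 ± 0.181 against 2.10 ± 0.224 TPM (n = 4 each), Grik4 at 0.411 ± 0.157 against 1.40 ± 0.605, Grik5 at 5.03 ± 0.528 against 7.49 ± 0.383, and Slc1a1 at 8.48 ± 2.41 against 12.9 ± 2.61. The log2 difference was -0.74 ± 0.15 for Grik4 (limma adjusted p = 9.84e-04), -0.61 ± 0.088 for Grm4 (limma adjusted p = 8.80e-05) and -0.50 ± 0.10 for Grik5 (limma adjusted p = 0.00136). Slc1a1 differed by -0.58 ± 0.21 (limma adjusted p = 0.0353) and Slc1a4 by -0.29 ± 0.086 (limma adjusted p = 0.0122), both with overlapping samples. All 5 calls were lower, which compares with 52.3% of all genes called in either direction, 34.3% higher and 18% lower. Samples did not overlap for 3 genes below (15.7% of all genes) and 0 above (29.6%). Among the 3 was Grik4, which passed the filter mostly through LC-DTR samples, where it is higher. Its call therefore adds no support for a lower level of the set in LC-DTA. The 1 gene higher at an unadjusted p under 0.05 was Slc1a5, which missed the adjusted threshold (0.33 ± 0.13, limma adjusted p = 0.0501), and Gria1 (0.42, 0.107), Slc1a3 (0.14), Grin2d (0.02), Gria3 (-0.07) and Grin3b (-0.08) were not called. The median was -0.08 over the 11 genes and 0.09 over all genes. Over all genes the calls were 5041 higher and 2647 lower as deposited, but 3720 and 3702 after median ratio scaling, and 3740 and 3730 after quantile normalization, under which Gria3 (-0.21) and Grin3b (-0.26) were also called lower. Slc1a1 lost its call without any 1 of 4 libraries (LC-DTR croton oil 1 or 4, LC-DTA croton oil 1 or 4; -0.59 to -0.39, limma adjusted p 0.0560 to 0.111), and Slc1a4 without LC-DTR croton oil samples 2 and 3 (-0.17, limma adjusted p = 0.161) or LC-DTA croton oil samples 3 and 4 (-0.29, 0.0618). Slc1a5 was called higher in 7 of 25 alternatives. These were without vehicle library 2 or croton oil library 1 of LC-DTR, or vehicle library 3 or croton oil library 1 of LC-DTA (0.33 to 0.41, limma adjusted p 0.0217 to 0.0385). The others were a filter of 5 TPM (limma adjusted p = 0.0488), a replicate block (0.0450) and a fit of only the groups compared (0.0372). Gria1 was called higher without LC-DTR vehicle 3 (limma adjusted p = 0.0394) and without LC-DTA croton oil samples 3 and 4 (0.67, limma adjusted p = 0.0452). Fibroblast (5 of 6), macrophage (3 of 4), mast cell (7 of 12), melanocyte (4 of 6) and chondrocyte (3 of 6) markers were called higher in LC-DTA here, beside 34.3% of all genes. Suprabasal keratinocyte markers had 2 of 5 called lower and 0 higher, sebaceous gland markers 2 of 6 lower and 0 higher, and basal keratinocyte markers 2 of 6 higher and 1 lower, beside 18% of all genes lower. The part of these markers was not tested.

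**Figure D4:**
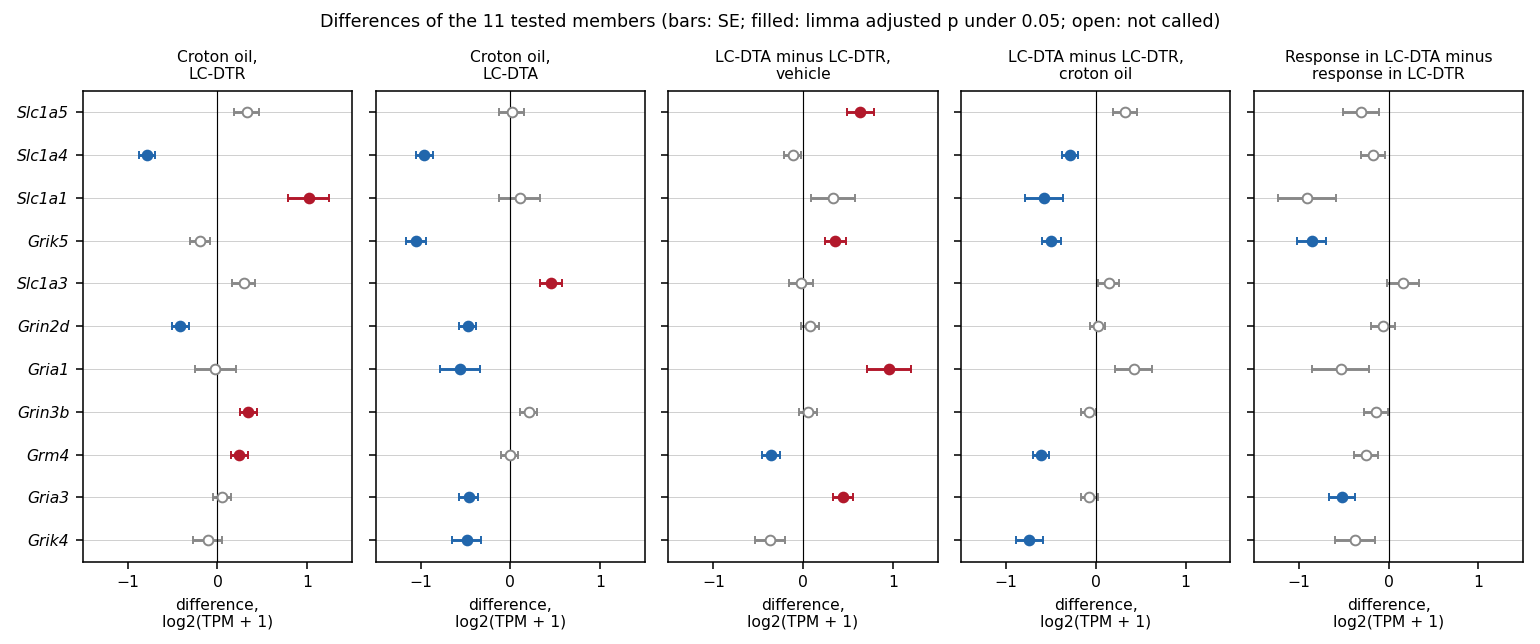
Log2(TPM + 1) differences of the 11 detected genes in the 5 comparisons, with bars for the SE and filled points for an adjusted p under 0.05. In the difference of the responses the called genes are Grik5 (-0.86) and Gria3 (-0.52), and Slc1a1 (-0.91) has a wider error and is not called.

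The response to croton oil itself differed between the genotypes for 2 of the 11 genes. Grik5 fell further in LC-DTA, where its difference was -1.05, than in LC-DTR, where it was -0.20 and not called. Gria3 differed by -0.46 in LC-DTA and by 0.05 in LC-DTR. The difference of the responses, LC-DTA minus LC-DTR, was -0.86 ± 0.16 for Grik5 (limma adjusted p = 0.00270) and -0.52 ± 0.15 for Gria3 (limma adjusted p = 0.0226). These 2 calls compare with 23.1% of all genes tested in either direction, the 2 lower with 12.6% and the 0 higher with 10.5%, and 0 were higher at an unadjusted p under 0.05 in limma. Slc1a1 had the most negative estimate, -0.91 ± 0.32, and was not called (limma adjusted p = 0.0576). The other 8 genes were not called, with differences from -0.53 for Gria1 to 0.16 for Slc1a3. The median was -0.31 over the 11 genes and -0.02 over all genes. The Gria3 call was lost without LC-DTR vehicle 2 (-0.43, limma adjusted p = 0.0545) or LC-DTA vehicle 2 (-0.43, limma adjusted p = 0.0682), and without LC-DTA croton oil samples 3 and 4 (-0.53, limma adjusted p = 0.0525). Slc1a1 was called without vehicle library 2 or croton oil library 3 of LC-DTR, or croton oil library 3 of LC-DTA (-1.12 to -1.01, limma adjusted p 0.0288 to 0.0437), and Gria1 without LC-DTR vehicle 3 (-0.84, limma adjusted p = 0.0394).

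Other genes that handle glutamate or carry its receptors were taken as 3 lists, also chosen with earlier results of these data known. Of 8 transporters of cystine, glutamine and large amino acids, 7 were tested. With croton oil, 6 of these rose in LC-DTR and 0 fell, beside 22.1% and 29.5% of all genes, with a median of 0.64 against -0.06 for all genes. Slc7a5, the large neutral amino acid transporter, rose from 63.3 to 239.8 TPM (1.92 ± 0.15, limma adjusted p = 1.31e-06), and Slc3a2, the heavy chain it pairs with, rose by 0.80 ± 0.11 (limma adjusted p = 6.84e-05). Slc38a1 (0.64) and Slc7a6 (0.57) rose as well. In LC-DTA ears 4 rose and 1 fell, beside 24.2% and 34.5% of all genes, with a median of 0.33 against -0.09. Slc7a11, which exports glutamate in exchange for cystine, rose there from 1.27 to 8.09 TPM (1.93 ± 0.32, limma adjusted p = 1.70e-04), and Slc7a5 by 0.88 ± 0.15 (limma adjusted p = 2.73e-04). Slc3a2 rose by 0.40, and Slc38a3, a glutamine transporter, fell by 0.86. Under vehicle 1 was higher in LC-DTA (19.1% of all genes), Slc38a1 (0.34, limma adjusted p = 0.0407), a call lost without any 1 of 7 libraries (LC-DTR vehicle 2 or 3, LC-DTA vehicle 2 or 3, LC-DTA croton oil 2, 3 or 4; limma adjusted p 0.0502 to 0.158) and under both scalings. After croton oil 3 of 7 were lower in LC-DTA (18% of all genes) and 0 higher (34.3%), namely Slc7a5 (-0.68), Slc7a6 (-0.55) and Slc38a2 (-0.50). The response in LC-DTA minus that in LC-DTR was -1.05 ± 0.22 for Slc7a5 (limma adjusted p = 0.00457) and -0.61 ± 0.13 for Slc38a2 (limma adjusted p = 0.00627).

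Of 16 genes of glutamate and glutamine metabolism, 14 were tested. With croton oil, 4 rose and 4 fell in LC-DTR, and 5 rose and 6 fell in LC-DTA, beside 51.6% and 58.7% of all genes called in either direction. Gpt, an alanine aminotransferase that makes glutamate from alanine, fell in LC-DTR from 70.9 to 18.4 TPM (-1.89 ± 0.16, limma adjusted p = 1.68e-06), while Gpt2, its mitochondrial relative, rose (0.53 in LC-DTR, 0.69 in LC-DTA). Aldh4a1, the last enzyme of proline breakdown to glutamate, fell by 0.80 in LC-DTR and by 1.20 in LC-DTA. Srr, which makes the NMDA receptor co-agonist D-serine, fell by 0.57 in LC-DTR. Glul, glutamine synthetase, fell in LC-DTA from 276 to 107 TPM (-1.35 ± 0.13, limma adjusted p = 4.25e-06), and Asns, asparagine synthetase, rose by 0.82 there. After croton oil Glul was at 107 TPM in LC-DTA against 338 in LC-DTR (-1.63 ± 0.12, limma adjusted p = 1.33e-06). In that comparison 7 of the 14 genes were higher and 2 lower in LC-DTA, beside 34.3% and 18% of all genes, among them Gls2 (0.65), Oat (0.36) and Aldh4a1 (-0.52). Under vehicle Glud1 (0.28) and Got1 (0.36) were higher and Gpt (-0.72) and Gpt2 (-0.35) lower in LC-DTA, which makes 4 of 14 beside 24.5% of all genes. The Gpt2 call was lost without LC-DTR vehicle 2, LC-DTA vehicle 1 or LC-DTA vehicle 3 (limma adjusted p 0.0539 to 0.0679). The response differed between genotypes for 4 of 14 (23.1% of all genes), Glul (-1.22), Got1 (-0.41), Gpt (1.13) and Srr (0.47). For Gpt and Srr, which fell in LC-DTR, the positive value means a smaller fall in LC-DTA. The TGATGNAA core was found in the promoter windows of Asns and Got1 among 13 genes of this list with a RefSeq promoter, and of Slc7a11 among 5 of the transporter list, beside 3.81% of all promoters. The E-box was found in Aldh18a1 of the first list and Slc38a5 of the second, and TGANTCA in neither list. In the scaffold list described next, Cnih3 and Dlg1 held the E-box, Cacng5 a TGANTCA match and none of 21 genes the TGATGNAA core.

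**Figure D5:**
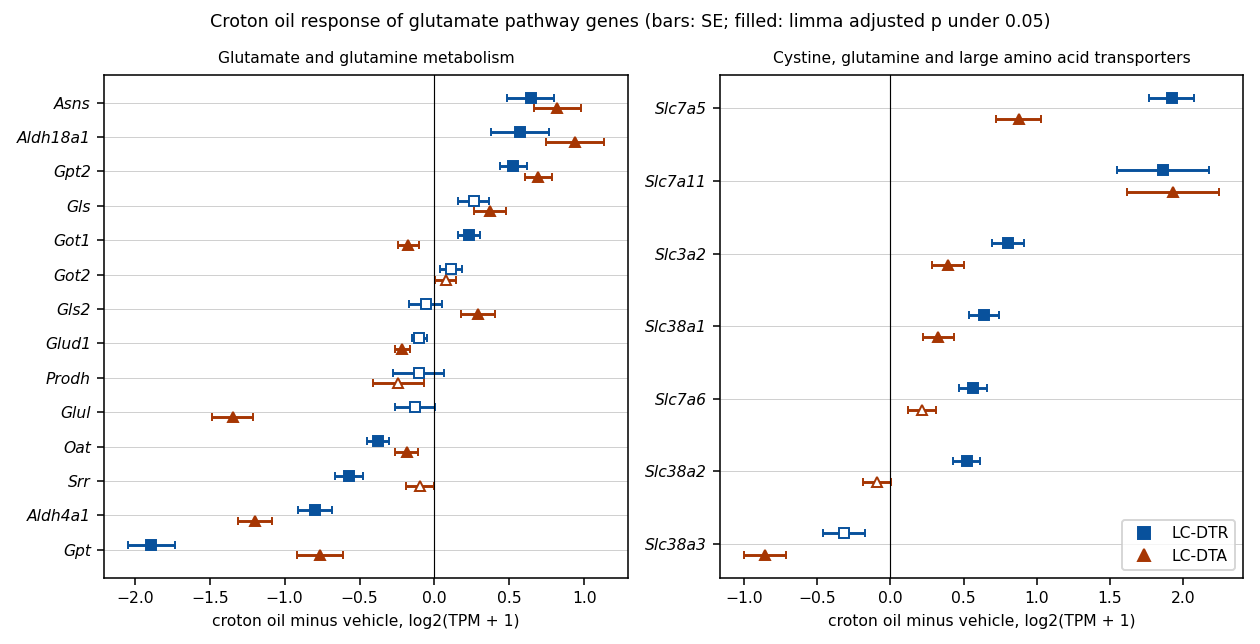
Log2(TPM + 1) response to croton oil of the tested metabolism and transporter genes in LC-DTR and in LC-DTA, with bars for the SE and filled points for an adjusted p under 0.05. In LC-DTR, Slc7a5 is the highest (1.92) and Gpt the lowest (-1.89).

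Of 29 auxiliary subunits and scaffold proteins of glutamate receptors, 19 were tested. Arc, an early response gene that promotes removal of AMPA receptors from the membrane, rose with croton oil from 9.99 to 76.5 TPM in LC-DTR (2.92 ± 0.23, limma adjusted p = 1.32e-06) and by 2.41 ± 0.23 in LC-DTA (limma adjusted p = 3.33e-06). In LC-DTR 4 of the 19 rose and 4 fell, beside 22.1% and 29.5% of all genes, with Dlg1 (0.38) higher and Dlg2 (-0.96) and Dlg3 (-0.35), further membrane scaffolds, lower. In LC-DTA 5 rose and 6 fell, beside 24.2% and 34.5%, with Neto2, a kainate receptor auxiliary subunit, higher (0.86) and Cacng7 (-0.77) and Dlg2 (-0.75) lower. Under vehicle 5 were higher and 2 lower in LC-DTA, beside 19.1% and 5.34%, led by the postsynaptic scaffold Shank3 (0.72), with Dlg2 (-0.62), Dlg3 (-0.30) and Cacng7 (0.51). The calls of Dlg3 and Cacng7 were lost without LC-DTR vehicle 2 (limma adjusted p = 0.0552 and 0.0704). After croton oil 6 were higher and 4 lower in LC-DTA, beside 34.3% and 18%. Gsg1l, an AMPA receptor auxiliary subunit, was at 5.52 against 0.941 TPM (1.78 ± 0.25, limma adjusted p = 7.04e-05), followed by Neto2 (0.70), Homer1 (0.55) and Dlg4 (0.37), the last not called after quantile normalization (0.19, limma adjusted p = 0.0627). The response in LC-DTA minus that in LC-DTR was called negative for Shank3 (-0.71) and Cacng7 (-0.81), both of them higher in LC-DTA under vehicle (0.72 and 0.51). It was called positive for 0 genes of the list, beside 12.6% of all genes negative and 10.5% positive.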

How the data were processed

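Whole ear RNA was measured in 14 samples of 4 groups. Extraction used a Qiagen RNeasy kit and library preparation an Illumina stranded mRNA kit, per the labels' protocols. The values are TPM as deposited by the authors, 1 per gene and sample. Tools named in the submitters' processing notes are cutadapt, HISAT2, Subread and featureCounts, and the build is mm10. No order, annotation, strand setting or step to TPM is recorded (not given in the sources used here). Depth is unknown, since TPM hold none, and counting intervals are left out.

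Of 24062 rows, 27 carried dates in place of gene names (0.124 to 0.145% of TPM) and were left out, leaving 24035. No sample column went unused (0). Genes with at least 1 TPM in at least 3 samples were tested (14693), and 9342 fell below. The log2(TPM + 1) values entered limma 3.58.1 (R 4.3.3) with 4 group means and a mean-variance trend over all 14 samples. The 5 comparisons were adjusted by Benjamini-Hochberg within each over all genes tested, and the tests were two-sided. The fit was checked on simulated data. Tables and figures used Python 3.11.15, pandas 2.3.3 and matplotlib 3.10.9. Gene positions come from GENCODE M21 (GRCm38) and promoters from RefSeq (GRCm38.p6).

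The genes were taken by name, and results for some of them are not reported here. The set and the lists were chosen with earlier results of these data known. By rule, every gene at 1 TPM or more and every called gene is named, and up to 4 called genes with the lowest p per list and comparison. The alternatives were other pseudocounts, filters, scalings and variance models, a replicate block, the compared groups alone, and left-out samples. Marker lists of 16 cell types, 1 with Cd207 alone, were summed, and those whose calls stand beside a result are given.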

Additional observations from a re-analysis of the deposited data

Results flagged for a closer look

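For 10 genes the response to croton oil differed between LC-DTA and LC-DTR by a test of the difference itself (limma, all with an adjusted p under 0.05). They were 2 of 11 detected genes, 2 of 7 transporters, 4 of 14 metabolism genes and 2 of 19 scaffolds and auxiliary subunits. Of all genes tested, 23.1% were called in this comparison, and shares near that are no result about these genes as a set. The Gria3 call was lost in 3 alternatives. The response in LC-DTA minus that in LC-DTR was -0.86 on the log2(TPM + 1) scale for the kainate subunit Grik5 and -0.52 for the AMPA subunit Gria3. Among transporters it was -1.05 for Slc7a5 and -0.61 for Slc38a2. In glutamate metabolism it was -1.22 for Glul, -0.41 for Got1, 1.13 for Gpt and 0.47 for Srr. Among scaffolds and auxiliary subunits it was -0.71 for Shank3 and -0.81 for Cacng7. The 11 detected genes had no croton oil sample far from the other samples of its group, in 22 groups of 4 examined, where chance marks about 1 in 20.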

How the results depend on the processing

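Of 24 called differences of the 11 genes, 12 were past the threshold in every one of the 25 alternatives that could be fitted for them, 12 were lost in at least 1, and 0 changed sign. Of the 31 differences not called, 12 changed sign in at least 1 alternative. Of 52 differences named for the pathway lists, 47 stayed called in every alternative and 0 changed sign. A filter of 5 TPM left 4 genes detected and tested. It called 2 with croton oil in LC-DTR, 2 in LC-DTA and 2 between genotypes under vehicle. Between genotypes after croton oil it called 4 (3 lower and 1, Slc1a5, higher in LC-DTA), and in the difference of responses 1. With no filter, 12 of 36 genes were called with croton oil in LC-DTA instead of 7, and the 6 added below the filter, Gria4, Grik3, Grin2c, Grm8, Slc1a2 and Slc1a6, are at levels under 1 TPM. The Gria1 call was lost in that fit (-0.56, limma adjusted p = 0.105). Shares of all genes called with other filters are not given here, so these counts are no result about the set. Leaving out 1 library gave 4 to 5 and 5 to 7 calls with croton oil in LC-DTR and LC-DTA, 0 to 6 under vehicle, 4 to 6 after croton oil and 1 to 3 for the difference of responses. The lowest counts under vehicle were 0 without LC-DTR vehicle 2, 2 without LC-DTA vehicle 2 and 3 without LC-DTR vehicle 3, and without LC-DTA vehicle 2 the difference of responses had 1 call.

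Groups share replicate numbers, but same-numbered samples did not deviate together: over 19 pairs the correlation ran from -0.315 to 0.126, only 2 were over 0.1, and in 4 the first sample correlated best with its own number in the other group. The fit with a replicate block called 4, 6, 4, 6 and 2 genes in the 5 comparisons, against 5, 7, 5, 5 and 2 without it. Under the block Grm4 with croton oil in LC-DTR (limma adjusted p = 0.0982), Gria1 in LC-DTA (0.108) and Grik5 under vehicle (0.0801) were not called, and Slc1a5 after croton oil was called higher in LC-DTA (0.33, 0.0450). Fitting only the groups compared was not run for the difference of responses, which uses all 4 groups. The unknown depth limits what can be said of genes under 1 TPM.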
